A study of Mus musculus with 20 samples.

Results

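The genes described here are 10 markers of T lymphocytes and natural killer (NK) cells, Cd2, Cd3d, Cd3e, Cd3g, Cd8a, Lck, Thy1, Nkg7, Gzma and Il2rb, measured by RNA sequencing in hearts of old mice. They were taken by symbol as 10 of the 34291 rows of the deposited gene count table. The rapamycin group was 10 C57BL/6 mice given a diet with 14 ppm rapamycin, an inhibitor of the kinase mTOR, for 3 months from the age of 24 months. The control group was 10 age-matched C57BL/6 mice on the control diet, and hearts of both groups were taken at 27 months. Each library came from 1 whole frozen heart, ground to powder, and its polyadenylated RNA was sequenced in 50-base pairs; the labels give no sex, litter or batch. Libraries are named below by group and by the number in their label, so that rapamycin 8 is the heart numbered 8 in the rapamycin group.

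T cells recognise antigen through a receptor whose signalling subunits include the CD3 delta, epsilon and gamma chains, encoded by Cd3d, Cd3e and Cd3g. The kinase LCK, held near the receptor by CD4 or CD8, phosphorylates these chains, and the kinase ZAP70 then binds to them. NK cells and CD8 T cells kill through granules, whose proteins include granzyme A (Gzma) and NKG7, and both cell types use the interleukin-2 receptor beta chain (Il2rb) to respond to interleukin-2 and interleukin-15. The healthy heart holds few such lymphocytes, and rapamycin is known as an inhibitor of T cell proliferation. In RNA from whole hearts, fewer T or NK cells and less RNA of these genes per cell cannot be told apart.

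Total counts were 8525162 to 12458309 in the rapamycin libraries and 7039514 to 10594335 in the control libraries. Levels of single genes are given as normalised CPM, a gene's count scaled to the TMM-adjusted library total, and summed levels of marker lists as CPM of the unadjusted library total. They were not corrected for gene length, so that levels are compared between libraries and not between genes. Several of the genes lie close to the detection limit: 3 counts corresponded to 0.311 CPM in the median library. Thy1 does not, with 105 to 339 counts per library. The summed level of 8 cardiomyocyte genes was 48706 to 61069 CPM in the rapamycin group and 20163 to 57586 CPM in the control group. Several libraries carried transcripts of other tissues. Control 19 had 30840 CPM of 10 lung and airway genes, against a control median of 17.5 CPM, and the lowest cardiomyocyte sum. Rapamycin 8 and control 17 held 126 and 27 counts of Rag1, a recombinase gene of developing lymphocytes, and 64 and 19 counts of Dntt, the terminal transferase gene, where each of the other 18 libraries had 0 or 1 count of either gene. The full list of 9 thymocyte genes, some of which other heart cells express, summed to 30.9, 36.5 and 76.2 CPM (lowest, median, highest) in the rapamycin group, with rapamycin 8 at the top, and to 32.1, 40.7 and 51.0 CPM in the control group. Its 4 most specific genes (Rag1, Rag2, Dntt and Ptcra) summed to 21.3 CPM in rapamycin 8 and 4.53 CPM in control 17, with medians of 0 CPM in the rapamycin group and 0.104 CPM in the control group. The T and NK cell results are therefore given with and without control 19, and without rapamycin 8 and control 17. A fit without all of the libraries with lung transcripts is given below, where the dependence on processing is described.

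All 10 genes had a lower fitted level in rapamycin hearts than in control hearts, and Cd2 and Nkg7 passed the test. With edgeR's quasi-likelihood test and Benjamini-Hochberg adjustment over the 13940 genes that passed the filter on low counts, 2 of the 8 tested genes fell at an adjusted p of 0.05 and none rose. Among all 13940 genes, 2.68% fell and 0.689% rose by the same rule. At an unadjusted p of 0.05, 7 of the 8 were lower in the rapamycin group and 0 were higher, beside 13.5% of all genes that were lower and 8.21% that were higher. The median log2 fold change of the 8 was -1.52, beside -0.01 over all genes tested. Cd3d and Gzma did not pass the filter and were fitted with all 23781 detected genes, where 1 of the 10 (Cd2) fell, and 0 rose, against 1.16% and 0.248% of all genes, and the median of the 10 was -1.50. The 8 genes passed that filter on their counts in these same libraries, so their shared direction is a description of them. Cd3e and Nkg7 passed mainly through the control group, with median counts of 16 and 15.5 there and 6.5 and 6 in the rapamycin group. The 10 genes were also chosen with earlier results of these data known.

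**Figure D1:**
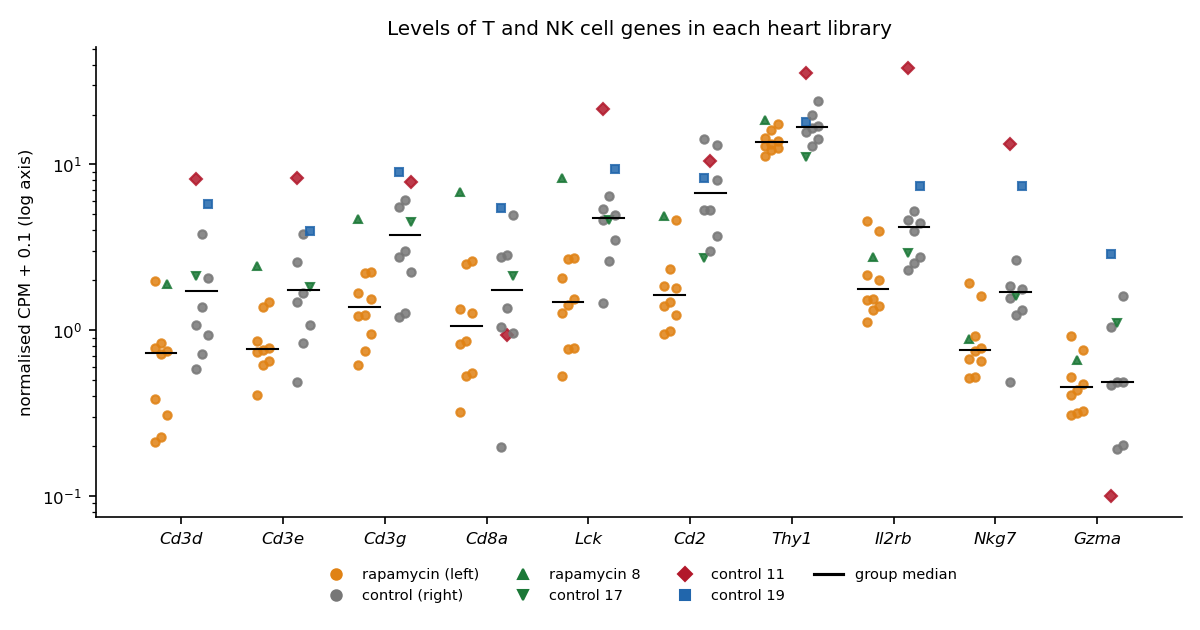
Normalised CPM of each of the 10 genes in every library on a log axis (0.1 CPM added), rapamycin left of control, with 10 hearts in each group and black bars at the group medians. Symbols mark rapamycin 8, control 17, control 11 and control 19; Cd2 is the gene with the most separated groups, and control 11 lies highest for Lck, Il2rb, Nkg7, Thy1, Cd3d and Cd3e.

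The CD3 chains were low in both groups. Promoter sequence is shown for them because the 3 genes lie close together on 1 chromosome and are used together in 1 receptor. The windows are the 250 bases before the start site in RefSeq on GRCm38.p6, printed along the coding strand: chr9:44981536-44981785 (plus strand) for Cd3d, chr9:45009612-45009861 (minus) for Cd3e and chr9:44980432-44980681 (minus) for Cd3g, so that Cd3d and Cd3g are read away from each other. Capitals mark fixed strings of letters found in sites bound by factors active in lymphocytes, searched on both strands: AGGAAG (ETS family), CAGNTG (E-box) and TGTGGT (RUNX family). Shorter or variant forms of these sites were not searched and stay in small letters. The authors mapped to the older build MGSCv37, and the count table holds no coordinates.
Cd3d: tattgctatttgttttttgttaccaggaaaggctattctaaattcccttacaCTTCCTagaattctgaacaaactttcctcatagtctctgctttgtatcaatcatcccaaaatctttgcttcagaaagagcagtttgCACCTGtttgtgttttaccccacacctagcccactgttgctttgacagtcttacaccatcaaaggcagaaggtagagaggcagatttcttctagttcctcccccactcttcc
Cd3e: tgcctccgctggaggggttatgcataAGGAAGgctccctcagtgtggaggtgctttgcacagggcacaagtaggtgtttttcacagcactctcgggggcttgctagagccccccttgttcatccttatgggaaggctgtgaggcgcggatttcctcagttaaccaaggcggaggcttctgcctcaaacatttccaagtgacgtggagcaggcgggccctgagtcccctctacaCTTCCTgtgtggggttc
Cd3g: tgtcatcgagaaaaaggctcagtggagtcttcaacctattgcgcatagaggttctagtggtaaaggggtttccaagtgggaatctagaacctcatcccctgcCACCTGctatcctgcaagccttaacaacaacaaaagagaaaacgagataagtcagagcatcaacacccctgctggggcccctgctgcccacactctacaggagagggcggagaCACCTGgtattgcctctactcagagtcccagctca
The ETS letters occur in the Cd3d and Cd3e windows and the E-box letters in the Cd3d and Cd3g windows, and the RUNX letters are not in these 3 windows. Promoter windows were found for 7 of the 10 genes, with 2 for Lck. Of these 8 windows, 5 hold the ETS letters, 5 the E-box letters, 3 the RUNX letters and 0 the TATA box letters TATAAA, compared with 29.5%, 44.8%, 14% and 12.4% of 32851 RefSeq promoter windows of the same length. These matches are letters in a sequence, and binding was not measured.

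Cd3g, the gamma chain, ranged from 0.512 over a median of 1.28 to 4.57 CPM in rapamycin hearts, and from 1.10 over 3.65 to 8.86 CPM in control hearts. Rapamycin 8 was the highest of its group and control 19 of its own. Of the 10 rapamycin libraries 9 lay below the control median, and 4 control libraries lay above every rapamycin library. The log2 fold change was -1.38 ± 0.40 (SE), which did not pass (edgeR adjusted p = 0.0550). Cd3e, the epsilon chain, ranged from 0.307 over 0.667 to 2.34 CPM in rapamycin hearts and from 0.388 over 1.64 to 8.12 CPM in control hearts. Rapamycin 8 and control 11 were the highest of their groups, and the groups overlapped at the low end, where control 1 lay below all rapamycin hearts but rapamycin 9. Its log2 fold change was -1.44 ± 0.45 (SE; edgeR adjusted p = 0.0749). Cd3d, the delta chain, had 0.111, 0.631 and 1.89 CPM as its lowest, median and highest rapamycin values and 0.484, 1.62 and 8.02 CPM as the same control values. Control 11 was again the highest, and 5 control hearts lay above every rapamycin heart. Fitted without the filter, its log2 fold change was -1.78 ± 0.54 (SE; edgeR adjusted p = 0.0881).

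These values depended on the choice of libraries. Without rapamycin 8 and control 17, Cd3e and Cd3g fell by 1.75 and 1.69 on the log2 scale and passed (edgeR adjusted p = 0.0449 and 0.0244). Cd3d was fitted without the filter and did not pass (log2 fold change -2.05, edgeR adjusted p = 0.0712). In that unfiltered fit Cd3g passed and Cd3e did not (edgeR adjusted p = 0.0373 and 0.0600). With the filter, and with control 19 left out as well, Cd3g still passed at -1.49 (edgeR adjusted p = 0.0302) and Cd3e did not at -1.66 (adjusted p = 0.0567). Leaving out control 19 alone gave -1.35 for Cd3e and -1.20 for Cd3g (edgeR adjusted p = 0.102 and 0.0803). Single libraries also decided the Cd3g call, which was made without rapamycin 5, rapamycin 8, control 7 or control 10 (edgeR adjusted p = 0.0491, 0.0249, 0.0425 and 0.0349), and the Cd3e call, made without control 1 (adjusted p = 0.0498). Control 1 also held lung transcripts.

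Lck encodes the kinase that starts signalling from the T cell receptor. It is transcribed from 2 promoters, and both windows are printed because the upstream one is known for its use in mature T cells and the downstream one for its use in thymocytes. Both lie on the minus strand of GRCm38.p6, at chr4:129573642-129573891 and chr4:129558373-129558622, and the capitals mark the same letters as above.
Lck upstream: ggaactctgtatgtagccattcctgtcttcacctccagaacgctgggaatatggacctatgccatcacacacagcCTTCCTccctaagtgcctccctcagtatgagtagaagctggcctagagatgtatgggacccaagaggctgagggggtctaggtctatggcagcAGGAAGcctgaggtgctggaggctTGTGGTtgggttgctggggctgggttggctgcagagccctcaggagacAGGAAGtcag
Lck downstream: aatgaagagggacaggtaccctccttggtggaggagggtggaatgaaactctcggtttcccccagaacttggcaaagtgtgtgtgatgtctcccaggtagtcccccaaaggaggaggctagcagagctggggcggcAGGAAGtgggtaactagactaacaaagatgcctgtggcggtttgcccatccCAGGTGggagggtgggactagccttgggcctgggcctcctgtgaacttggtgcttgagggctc
The upstream window holds ETS and RUNX letters, and the downstream window holds ETS and E-box letters. Counts per gene do not show which promoter a transcript came from. Lck ranged from 0.430 over a median of 1.38 to 8.14 CPM in rapamycin hearts and from 1.35 over 4.68 to 21.6 CPM in control hearts. The highest rapamycin library was rapamycin 8, more than 5 CPM above the next at 2.62 CPM, and the highest control library was control 11. Its log2 fold change over all 20 libraries was -1.60 ± 0.48 (SE) and did not pass (edgeR adjusted p = 0.0670). When rapamycin 8 and control 17 were left out, Lck fell by 2.17 on the log2 scale (edgeR adjusted p = 0.0131), and with control 19 also left out by 2.10 (adjusted p = 0.0146). Without control 19 alone the value was -1.52 (edgeR adjusted p = 0.0813), and without control 11 it was -1.15 (adjusted p = 0.142). Among single libraries, leaving out rapamycin 8 or control 10 brought the call (edgeR adjusted p = 0.0148 and 0.0430).

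Cd8a encodes the CD8 alpha chain, the coreceptor of cytotoxic T cells that also appears on thymocytes and on some dendritic cells. It ranged from 0.222 over 0.956 to 6.69 CPM in rapamycin hearts and from 0.0969 over 1.63 to 5.34 CPM in control hearts. The lowest values rest on 2 counts in rapamycin 6 and 1 count in control 1, below the floor of 3 counts. Rapamycin 8 was the highest of all 20 libraries, and no control heart lay above it. The log2 fold change was -0.38 ± 0.54 (SE) with a 95% interval of -1.51 to 0.75 (edgeR adjusted p = 0.725), which spans 0. Leaving out rapamycin 8 and control 17 gave -0.95 ± 0.52 (SE; edgeR adjusted p = 0.293), a change in size of more than 1.5 times. Control 19 held the highest control value, and the log2 fold change was -0.14 without it (edgeR adjusted p = 0.929). With all 3 libraries left out it was -0.69 (edgeR adjusted p = 0.492).

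Cd2, an adhesion receptor that binds CD48 in mice and is carried by T cells, NK cells and, in mice, B cells, showed the clearest difference. It ranged from 0.847 over a median of 1.53 to 4.80 CPM in rapamycin hearts and from 2.61 over 6.61 to 14.2 CPM in control hearts. All 10 rapamycin hearts lay below the control median, 8 of them lay below every control heart, and 7 control hearts lay above every rapamycin heart. The means were 2.05 ± 1.44 CPM in rapamycin hearts and 7.32 ± 4.15 CPM in control hearts (SD, n = 10 each). Cd2 fell by 1.83 on the log2 scale with a 95% interval of -2.60 to -1.07 (edgeR adjusted p = 0.0146). The call was made in each of the 20 fits that left out 1 library, with adjusted p from 0.00700 to 0.0363 in edgeR. Without rapamycin 8 and control 17 the log2 fold change was -2.16 (edgeR adjusted p = 0.00416), and with control 19 also left out -2.15 (adjusted p = 0.00341). Cd2 is the single one of the 10 genes listed in the authors' deposited table of 700 genes.

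Cd2 was high in other control libraries than the rest of the T and NK cell genes. In the rapamycin group the highest Cd2 values, 4.80 CPM in rapamycin 8 and 4.52 CPM in rapamycin 3, stood in the libraries with the most Cd79a, a B cell receptor subunit gene, at 12.5 and 11.9 CPM. The highest control values of Cd2 were 14.2 CPM in control 16 and 13.1 CPM in control 7, followed by 10.3 CPM in control 11. Controls 16 and 7 also held the most Cd79a, with 59.8 and 31.4 CPM, whereas control 11 had 0.31 CPM of Cd79a, the lowest level of the 20 libraries. The summed level of 10 B and plasma cell genes was 28.5, 44.4 and 101 CPM (lowest, median, highest) in rapamycin hearts and 27.9, 111 and 584 CPM in control hearts. None of its 8 tested genes passed the test with all 20 libraries, with a median log2 fold change of -1.84. Without rapamycin 8 and control 17 the count was again 0. With control 19 also left out 4 of 9 tested genes fell (edgeR), against 3.17% of all genes. Control 11, the library lowest in Cd79a, was left out as well by a choice made after seeing the data. Then 8 of 9 fell, against 2.6% of all genes, with a median of -2.48. Removing the control lowest in a gene of this list raises the control level of that gene. This count therefore describes the choice of libraries and is not a test. Leaving out control 11 alone gave 1 of 9, against 1.82% of all genes. The part of B cells in the Cd2 result was not tested.

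Thy1, a surface glycoprotein of mouse T cells that fibroblasts and neurons also make, had, with Cd8a, the smallest fitted fold change of the 8 tested genes. It ranged from 11.1 over 13.5 to 18.5 CPM in rapamycin hearts and from 11.05 over 16.8 to 35.3 CPM in control hearts. The lowest values of the groups were nearly equal, and 3 control hearts, with control 11 at the top, lay above every rapamycin heart. The log2 fold change was -0.38 ± 0.16 (SE), with a 95% interval of -0.72 to -0.04 before adjustment, and did not pass (edgeR adjusted p = 0.185). It was -0.22 without control 11 (edgeR adjusted p = 0.330) and -0.48 without rapamycin 8 and control 17 (adjusted p = 0.0899). The summed level of 8 fibroblast genes was 1196 to 2848 CPM in rapamycin hearts and 1406 to 2366 CPM in control hearts, and 0 of its 8 genes passed the test.

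Il2rb encodes the beta chain shared by the interleukin-2 and interleukin-15 receptors. It ranged from 1.01 over a median of 1.67 to 4.46 CPM in rapamycin hearts and from 2.21 over 4.10 to 37.9 CPM in control hearts. Control 11 held the 37.9 CPM, with the next control heart at 7.28 CPM, and accounted for 51.8% of the control group's summed level. Of the rapamycin hearts 7 lay below every control heart. The log2 fold change was -1.76 ± 0.50 (SE) and did not pass (edgeR adjusted p = 0.0537). Without control 11 it was -0.86 (edgeR adjusted p = 0.105), more than 1.5 times smaller. Leaving out rapamycin 5, control 10, control 17 or control 20 brought the call (edgeR adjusted p = 0.0331, 0.0407, 0.0389 and 0.0434). Without control 19 the log2 fold change was -1.75 (edgeR adjusted p = 0.0633), and without rapamycin 8 and control 17 it was -1.89 (adjusted p = 0.0544).

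Nkg7, a membrane protein of cytotoxic granules, is the other gene that passed, and its upstream window is printed for that reason. It lies at chr7:43436888-43437137 on the plus strand of GRCm38.p6, with the same letters in capitals.
Nkg7: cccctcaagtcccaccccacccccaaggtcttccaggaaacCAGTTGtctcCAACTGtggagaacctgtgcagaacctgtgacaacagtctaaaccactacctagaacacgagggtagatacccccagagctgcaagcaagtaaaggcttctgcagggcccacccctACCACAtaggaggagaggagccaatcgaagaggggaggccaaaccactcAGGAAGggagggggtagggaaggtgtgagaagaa
All 3 kinds of letters occur in this window. Nkg7 ranged from 0.410 over a median of 0.660 to 1.81 CPM in rapamycin hearts and from 0.387 over 1.59 to 13.1 CPM in control hearts. The groups overlapped at the low end, and control 11 and control 19, at 13.1 and 7.28 CPM, were far above the other control hearts. Of the rapamycin hearts 9 lay below the control median. Nkg7 fell by 1.92 on the log2 scale with an SE of 0.52 (edgeR adjusted p = 0.0457). This call lay close to the threshold. It was lost without control 11 (log2 fold change -1.31, edgeR adjusted p = 0.0904), without control 19 (-1.70, adjusted p = 0.0716), and without control 2 or any of rapamycin 3, 4, 6, 8, 9, 12, 14, 15 and 18, with adjusted p between 0.0565 and 0.0904 over these 12 fits. Without control 2 or any of those rapamycin libraries the log2 fold change was -2.04 to -1.84. Over the 12 fits 142 to 337 of all genes fell, against 373 with all 20 libraries. The call was also lost when rapamycin 8 and control 17 were left out (log2 fold change -1.99, edgeR adjusted p = 0.0535), and with control 19 left out as well (-1.78, adjusted p = 0.0788).

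Gzma, the granzyme A gene, was at the detection limit. It ranged from 0.205 over 0.354 to 0.822 CPM in rapamycin hearts and from 0 over 0.387 to 2.79 CPM in control hearts. Control 19 was the highest, and control 11, which led for 6 other genes, had 0 counts, which allows a level of up to 0.312 CPM. Fitted without the filter, the log2 fold change was -0.81 ± 0.54 (SE; edgeR adjusted p = 0.445), and without control 19, rapamycin 8 and control 17 it was -0.24 (adjusted p = 0.865).

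Counting the 8 tested genes again in each of the edgeR fits on fewer libraries gave from 1 to 5 that fell and 0 that rose (edgeR). Without control 19, Cd2 alone fell, against 2.33% of all genes that fell and 1.05% that rose. Without control 11, it was again Cd2 alone, against 1.82% and 0.25%. Without rapamycin 8 and control 17, 4 genes fell (Cd2, Lck, Cd3e and Cd3g), against 3.11% of all genes that fell and 0.659% that rose, and with control 19 also left out 3 fell (Cd2, Lck and Cd3g), against 3.17% and 1.05%. Without controls 11, 17 and 19 and rapamycin 8, a choice made after seeing the data, 2 fell (Cd2 and Lck), against 2.6% and 0.747% of all genes, and the median of the 8 was -0.93. All 10 genes were also fitted with no filter. Then 3 fell (Cd2, Lck and Cd3g) without rapamycin 8 and control 17, against 1.39% of all genes that fell and 0.186% that rose, and the same 3 with control 19 also left out, against 1.62% and 0.614%. Leaving out control 11 in the same way left Cd2, against 0.498% and 0.0633%. With all 20 libraries and the filter, DESeq2 called 5 falls (Cd2, Cd3e, Cd3g, Lck and Nkg7; 4.64% of all genes fell and 2.31% rose), edgeR with robust estimation 1 (Cd2; 2.48% and 0.638%) and limma voom 2 (Cd2 and Lck; 4.72% and 3%). Over the 20 fits that left out 1 library, 1 gene fell without rapamycin 3, 4, 6, 9, 12, 14, 15 or 18 or control 2, 11 or 19. As many as 4 fell without rapamycin 5 and 5 without control 10, and 2 or 3 fell in the other fits. The number of all genes that fell moved as well: it was 142 to 337 in the fits where 1 gene fell, 594 without rapamycin 5, 470 without control 10 and 285 to 558 in the other fits. In none of these fits did a fitted fold change turn positive, with Cd3d and Gzma covered only by the fits with no filter.

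**Figure D2:**
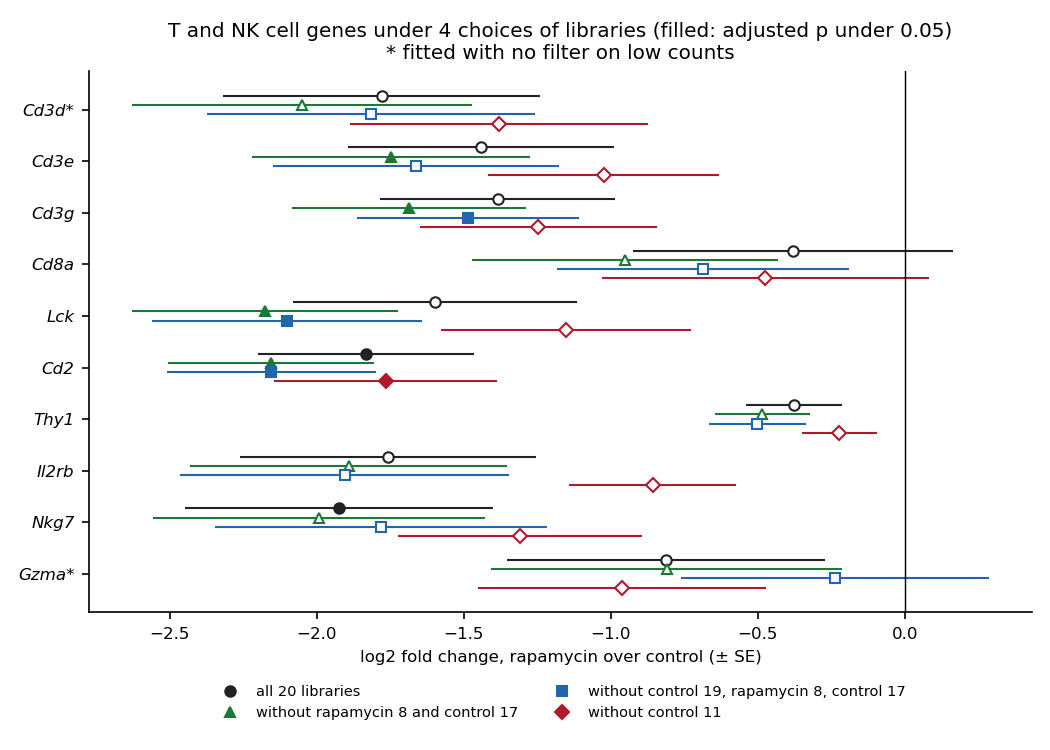
Log2 fold change (rapamycin over control) with its SE for each of the 10 genes in edgeR fits on 4 choices of libraries, with filled symbols where the adjusted p is under 0.05. Cd3d and Gzma, marked with an asterisk, were fitted without the filter on low counts; Cd2 is filled under every choice, Nkg7 for all 20 libraries only, Lck and Cd3g where rapamycin 8 and control 17 are left out, with and without control 19, and Cd3e where those 2 libraries alone are left out.

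The libraries at the top of each gene's range had different profiles. Rapamycin 8 led the rapamycin group for Cd2, Cd3e, Cd3g, Cd8a, Lck and Thy1, and also for Cd8b1, the CD8 beta chain (5.24 CPM), Cd4 (4.68 CPM) and Zap70 (1.78 CPM). Its Rag1 level was 14.1 CPM and its Dntt level 7.14 CPM, compared with 2.71 and 1.91 CPM in control 17. Control 11 led the control group for Cd3d, Cd3e, Lck, Thy1, Il2rb and Nkg7, and among related genes it had the most Zap70 (6.67 CPM), Cd4 (6.56 CPM) and Gzmb (6.87 CPM, next control 2.55 CPM). The same library had 0.83 CPM of Cd8a and 0.94 CPM of Cd8b1. Control 17 led the control group for none of the 10 genes and held its lowest Cd2 and Thy1 levels. Control 19, the library with the most lung transcripts, led the control group for Cd3g, Cd8a and Gzma. The normalised levels of the 10 genes summed to 19.2, 21.8 and 50.9 CPM (lowest, median, highest) in rapamycin hearts and 30.6, 41.3 and 143 CPM in control hearts. By group median Thy1, which fibroblasts and neurons also make, was the largest part, with 13.5 CPM in rapamycin and 16.8 CPM in control hearts.

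**Figure D3:**
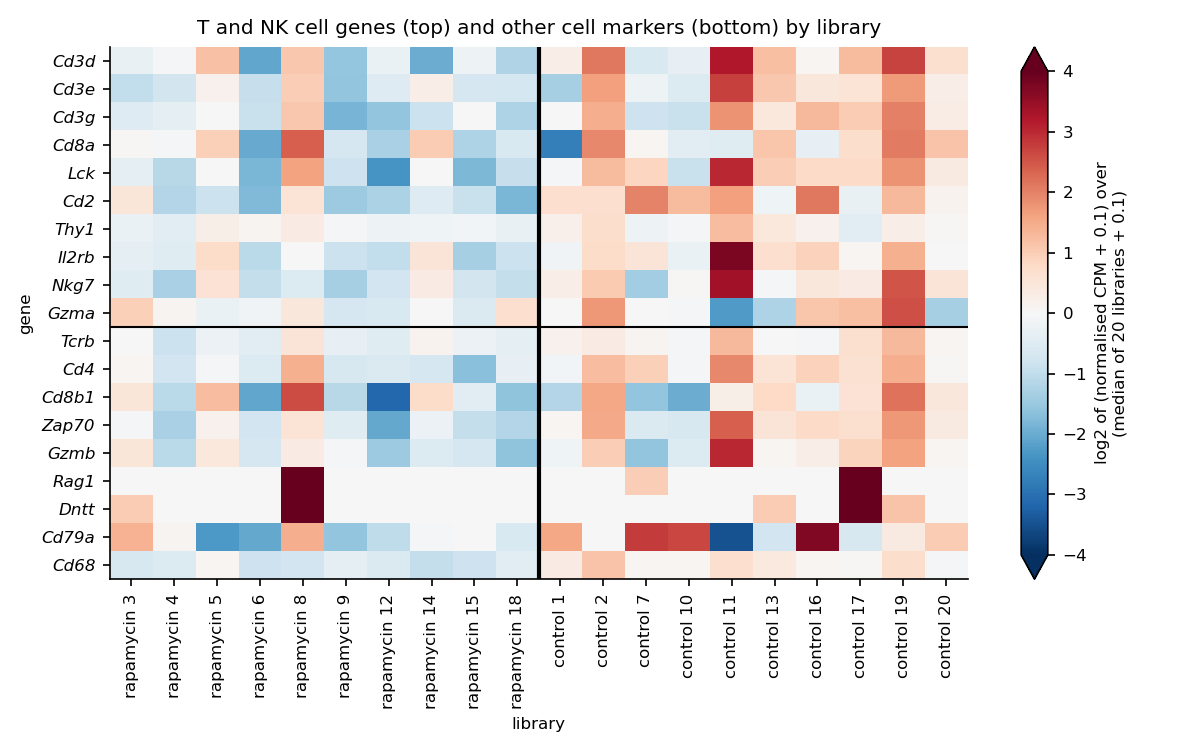
Heat map of log2 of each gene's normalised CPM over its median across the 20 libraries (0.1 CPM added to both), rapamycin libraries left of control libraries, for the 10 genes and for T cell, thymocyte, B cell and macrophage genes. Rag1 and Dntt stand out in rapamycin 8 and control 17, most T and NK cell genes, but not Cd8a and Gzma, in control 11, and Cd79a in controls 7 and 16.

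Genes of the same pathways were read from 4 lists written with earlier results of these data known, and all falls and medians given for them are log2 fold changes over the 20 libraries unless a left-out library is named. Their counts stand beside the 2.68% of all genes that fell and 0.689% that rose. Of 31 genes of the T cell receptor complex and its signalling, 22 were tested, 11 fell and 0 rose (edgeR), and the median log2 fold change was -1.08. The largest falls among these 11 were those of the adaptor gene Grap2, which fell by 1.74, and Cd5, a surface inhibitor of receptor signalling, which fell by 1.62 (edgeR adjusted p = 0.0203 and 0.0420). Grap2 ranged from 0.282 to 3.50 CPM in rapamycin hearts and from 1.89 to 13.3 CPM in control hearts. Zap70 fell by 1.52, with 0.215 to 1.78 CPM in rapamycin hearts and 0.736 to 6.67 CPM in control hearts (edgeR adjusted p = 0.0390). The phosphatase gene Ptpn22 fell by 1.45 (edgeR adjusted p = 0.0255). Ptprc, the CD45 phosphatase of all leukocytes, fell by 1.22, and Rasgrp1, an activator of RAS, by 1.20 (edgeR adjusted p = 0.0234 and 0.0485). Lcp2, which encodes the adaptor SLP-76, fell by 1.08 (edgeR adjusted p = 0.0155), and Cd48, the ligand of CD2 in mice, and Vav1 each fell by 0.84 (adjusted p = 0.0254 and 0.0305). Csk, the kinase that holds LCK inactive and is made by most cells, fell by 0.29 (edgeR adjusted p = 0.0468).

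The zeta chain gene Cd247 stood apart from the 3 CD3 genes. It ranged from 12.6 to 18.5 CPM in rapamycin hearts and from 12.98 to 20.5 CPM in control hearts, with a log2 fold change of -0.12 (edgeR adjusted p = 0.442). Its counts were above 100 in every library, whereas those of the CD3 genes followed the libraries described above. Whether these Cd247 reads come from T cells was not tested.

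The count of the receptor list changed when single libraries were left out, and so did the number of all genes that fell. The receptor count was 3 without rapamycin 4, 12 or 18, 4 without rapamycin 6, 5 without rapamycin 9, 14 or 15 or control 11, 6 without control 2 and 7 without control 16, and 1 gene, Prkcq, rose without control 11. All genes that fell numbered 142 to 255 where the receptor count was 3 to 5, 239 without control 2 and 405 without control 16, against 373 with all 20 libraries. Without rapamycin 8 and control 17 the receptor count was 14, with control 19 also left out 12, and without control 19 alone 8. Shares of all genes that fell were 3.11%, 3.17% and 2.33% in these fits. Lcp2, Grap2 and Ptprc passed in all 20 fits that left out 1 library, and each of the other 8 genes was lost in 3 to 14 of them.

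The NK cell and cytotoxic granule list held 30 genes, of which 12 were tested, 2 fell and 0 rose, with a median of -0.91 (-0.57 without control 19). Unc13d, needed for granule release, fell by 1.42, with 1.61 to 3.19 CPM in rapamycin hearts and 2.75 to 26.0 CPM in control hearts (edgeR adjusted p = 0.0300). Control 19 held its highest value, the next control being 5.49 CPM, and without control 19 it fell by 0.85 (edgeR adjusted p = 0.00884). Fcgr3, an Fc receptor that macrophages also carry, fell by 0.70 (edgeR adjusted p = 0.0476) and was lost without control 19 (adjusted p = 0.0717). The next genes by p did not pass: the signalling adaptor Tyrobp at -0.94, the NK receptor Cd244 at -1.35 and Rab27a at -0.88 (edgeR adjusted p = 0.0550, 0.0632 and 0.0850). Control 19 was the highest library for these 3 genes. Without it Tyrobp and Rab27a passed at -0.55 and -0.40 (edgeR adjusted p = 0.0418 and 0.0430), and Cd244 did not at -0.82 (adjusted p = 0.0936). Genes that define NK cells and killing were among the 18 too low to test. Ncr1, the NKp46 receptor gene, had 0 to 4 counts in rapamycin hearts and 0 to 10 in control hearts, and the perforin gene Prf1 had 0 to 6 counts in rapamycin hearts and 1 to 20 in control hearts. Among the 8 tested T and NK cell genes, the NK side is covered by Nkg7 and Il2rb, which T cells also express. Unc13d was lost in 4 and Fcgr3 in 15 of the 20 fits that left out 1 library. The list's count was 0 without rapamycin 4, 6, 12 or 18, 1 without rapamycin 3, 8, 9, 14 or 15 or control 1, 2, 7 or 11, and 4 without rapamycin 5 or control 10, 17 or 20. All genes that fell numbered 142 to 164, 186 to 337 and 457 to 594 in these 3 sets of fits.

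Of 20 genes of interleukin-2 and the other cytokines that use the common gamma chain, 18 were tested, 2 fell and 0 rose, and the median was -0.14 (-0.08 without control 19). Il21r, the interleukin-21 receptor gene, fell by 1.16, with 1.29 to 4.13 CPM in rapamycin hearts and 3.11 to 10.3 CPM in control hearts (edgeR adjusted p = 0.0155). Il2rg, the common gamma chain itself, fell by 0.57 (edgeR adjusted p = 0.0358). Il7r, the interleukin-7 receptor of resting T cells, did not pass at -1.64, nor did Il4ra at -0.79 or the survival gene Bcl2 at -0.55 (edgeR adjusted p = 0.0544, 0.0532 and 0.0553). Control 11 was the highest library for Il7r at 43.7 CPM, with the next control at 14.2 CPM. Il21r passed in all 20 fits that left out 1 library, and Il2rg was lost in 10. The count was 1 without rapamycin 4, 6, 9, 12, 14, 15 or 18 or control 2, 11 or 19, 4 without control 16 or 17, 5 without control 10 or 20 and 6 without rapamycin 5. All genes that fell numbered 142 to 325 where the count was 1, and 405 to 594 where it was 4 to 6. Among these fits 1 gene of the list rose without rapamycin 5 or control 10.

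Of 30 T lineage transcription factor and homing genes, 20 were tested, 6 fell and 0 rose, with a median of -0.58. The zinc finger factors Ikzf1 and Ikzf3, active in T and B cells, fell by 1.25 and 1.86 (edgeR adjusted p = 0.0111 and 0.0222). Itgal, the LFA-1 integrin chain, fell by 1.27, with 3.22 to 10.5 CPM in rapamycin hearts and 8.44 to 29.2 CPM in control hearts (edgeR adjusted p = 0.0132), and Itgb7, a gut-homing integrin chain, fell by 1.39 (adjusted p = 0.0282). Cd44, an adhesion receptor of activated T cells and many other cells, fell by 1.09, and by 0.63 without control 19 (edgeR adjusted p = 0.0407 and 0.0117). Ikzf1, Ikzf3 and Itgal passed in all 20 fits that left out 1 library, and Itgb7 was lost in 7 and Cd44 in 10. The count was 3 without rapamycin 4, 6, 12 or 18, fits in which 142 to 164 of all genes fell. In the list 1 gene rose without rapamycin 15.

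**Figure D4:**
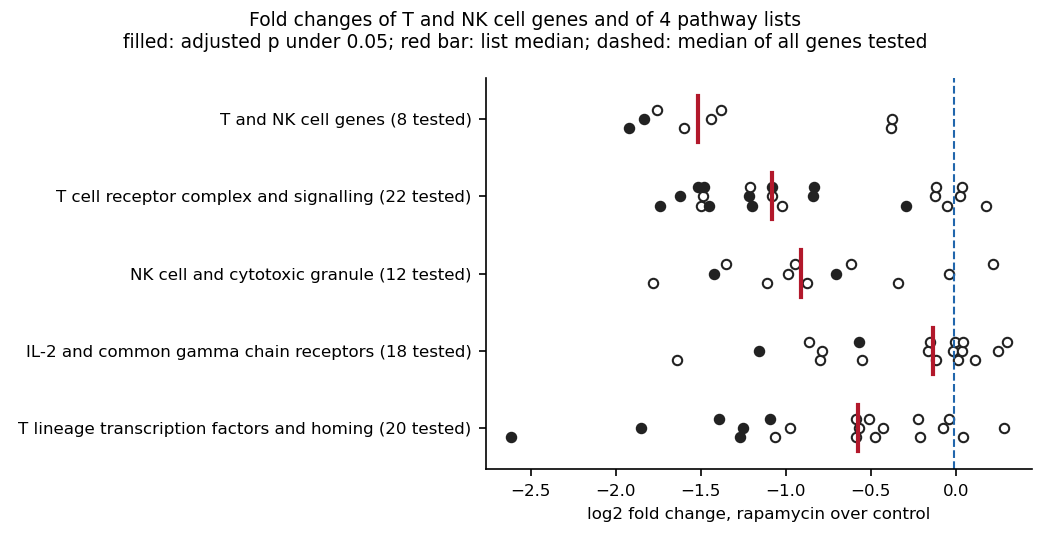
Log2 fold change (rapamycin over control, all 20 libraries) of each tested gene among the T and NK cell genes and the 4 pathway lists, with filled points where the edgeR adjusted p is under 0.05, red bars at list medians and a dashed line at the median of all genes. List medians run from -1.52 for the 8 tested T and NK cell genes to -0.14 for the interleukin-2 list, whose points lie on both sides of 0.

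Many of the listed genes that fell are also expressed by other leukocytes, and markers of those cells moved with them. The summed level of 8 pan-leukocyte genes was 121, 141 and 262 CPM (lowest, median, highest) in rapamycin hearts and 218, 309 and 954 CPM in control hearts, and 8 of 8 fell (edgeR). The summed level of 10 macrophage genes was 456, 520 and 1002 CPM in rapamycin hearts and 714, 950 and 4066 CPM in control hearts, and 9 of 10 fell. Among all genes tested in that fit of 20 libraries, 2.68% fell. Ptprc is in both the pan-leukocyte list and the receptor list. The macrophage count was 5 without control 11, against 1.82% of all genes, and 6 without rapamycin 8 and control 17, against 3.11%. Of 8 neutrophil genes 3 were tested, and 3 fell with all 20 libraries. Without control 19 the neutrophil count was 0, against 2.33% of all genes. The part of other leukocytes in the falls of the shared genes was not tested.

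The genes whose levels followed the CD3 chains from heart to heart were sought over 17 libraries, without control 19, rapamycin 8 and control 17. After centring within each group, the other genes most like the mean of log2(CPM + 1) of Cd3d, Cd3e and Cd3g were Stat4 (Pearson r = 0.92), Zap70 (0.90), Skap1 (0.89) and Ms4a4b (0.89). Spearman's rho was between 0.71 and 0.80 for these 4. Without control 11 and control 10, the libraries farthest from the median, r was 0.83 for Stat4, 0.76 for Zap70, 0.77 for Skap1 and 0.78 for Ms4a4b. The same measure gave 0.86 for Thy1 and Nkg7, 0.81 for Il2rb and 0.79 for Lck, and without those 2 libraries 0.69 for Thy1, 0.72 for Nkg7, 0.51 for Il2rb and 0.47 for Lck. For Cd8a it was 0.37, and 0.69 without them, so that its low value rested on control 11 (0.70 without control 11 alone). For Cd2 it was 0.07, and -0.10 without the 2 libraries. These values describe low counts in the same libraries and carry no test.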

How the data were processed

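Whole hearts of 10 rapamycin-fed and 10 control mice were sequenced as poly(A) RNA. The authors deposited raw read counts per gene; per the design text, reads were mapped to unique sites of MGSCv37, and no source used here gives the aligner, the counter or the strand setting. A second deposited table by the authors holds CPM of 700 genes, and it differed from CPM of the counts by at most 2.77e-05 for the 696 genes matched by symbol. The submitters' processing notes name edgeR.

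Counts were fitted with edgeR 4.0.16 in R 4.3.3 (TMM, filterByExpr, quasi-likelihood F-test, Benjamini-Hochberg over all genes, 0.05); 13940 of 34291 rows were tested and the coefficient of biological variation was 0.202. The SE is the log2 fold change over the square root of F. DESeq2 1.42.0 and limma 3.58.1 were alternatives. The script was tested on simulated data. In all 90 within-group pairs, counts differed by more than sampling error (lowest chi-square over its degrees of freedom, 5.40). The labels do not say more of the animals. The p-values set the difference between the groups against the spread between these hearts. Intervals use the SE of the same fit and so include the spread between hearts. The floor of 3 counts covers counting error only.

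The 10 genes, the 4 pathway lists and the 10 marker lists were chosen with earlier results of these data known. Named from the lists is every gene that passed, filled up to 5 by smallest p; the CD3 likeness rule took the 5 highest r, and a few genes that these rules pick are not reported here. A library was set apart where a marker sum exceeded 10 times the median of the 20. RefSeq promoters (GRCm38.p6) were cut to the 250 bases before the start; the entries did not cover Cd2, Thy1 and Il2rb.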

Additional observations from a re-analysis of the deposited data

Results flagged for a closer look

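Of 40 sets of 10 libraries checked for a single library far from the rest of its group, 18 values stood apart. The cutoff flags about 1 in 20 sets of normally distributed values, but it was applied to levels without a log scale. The sets also share libraries, so the number expected by chance is not known. In the rapamycin group, rapamycin 8 was highest for Cd3e (2.34 CPM, next 1.37), Cd3g (4.57 CPM, next 2.14), Cd8a (6.69 CPM, next 2.50) and Lck (8.14 CPM, next 2.62), and for the summed thymocyte genes (76.2 CPM, next 42.9). In the control group, control 11 was highest for Cd3e (8.12 CPM, next 3.88), Lck (21.6 CPM, next 9.34) and Il2rb (37.9 CPM, next 7.28).

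The other flags concern marker sums. Control 19 was highest for lung and airway genes (30840 CPM, next 576), macrophage genes (4066 CPM, next 1377), neutrophil genes (3113 CPM, next 168) and pan-leukocyte genes (954 CPM, next 463), and lowest for cardiomyocyte genes (20163 CPM, next 44513). Rapamycin 15 was highest for lung and airway genes (208 CPM, next 10.8) and neutrophil genes (40.5 CPM, next 19.1). Rapamycin 5 was highest for macrophage genes (1002 CPM, next 599) and pan-leukocyte genes (262 CPM, next 195). Rapamycin 9 held 387 CPM of liver genes (next 40.1).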

How the results depend on the processing

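All 279 alternative values of single T and NK cell genes were below 0; 22 of them lost a call and 29 gained one. Of the 8 tested genes, 4 fell without rapamycin 8 and control 17, 1 without the libraries with lung transcripts (control 19, 1 and 20, rapamycin 15), 6 with library totals in place of TMM, 1 with no filter, 5 with DESeq2, 1 with robust edgeR and 1 without control 11 and no filter (added after seeing the data). Over all genes, falls were 192 without the lung libraries, 1284 with library totals, 647 with DESeq2, 658 with voom and 118 without control 11 and no filter. Rises were 147 without control 19, rapamycin 8 and control 17, 48 with library totals, 59 with no filter, 322 with DESeq2, 418 with voom, 15 without control 11 and no filter and 44 without rapamycin 8 and control 17 and no filter. Library totals moved the median of all genes to -0.13. The share of falls among calls was 79.5% with all 20 libraries, 96.4% with library totals, 68.9% without control 19, 68.6% without the lung libraries, 66.8% with DESeq2 and 61.2% with voom.

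For the receptor list, falls were 4 without the lung libraries, 6 with no filter and 1 without control 11 and no filter, and 1 gene (Prkcq) rose without control 11, 17, 19 and rapamycin 8. For the NK list, falls were 1 without rapamycin 8 and control 17, with or without the filter, 7 with library totals, 6 with DESeq2, 1 with robust edgeR, 1 without the 4 libraries and 0 without control 11 and no filter. For the interleukin-2 list, falls were 1 without the lung libraries, 7 with library totals, 1 with no filter, 6 with DESeq2, 5 with voom and 1 without control 11 and no filter, and 1 gene (Il15) rose with DESeq2 and voom. For the homing list, falls were 3 without control 11 and no filter, and 1 gene rose with DESeq2 and voom. The cause of these shifts was not tested.

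Leaving out 1 library at a time gave 1 to 5 falls among the T and NK cell genes, 142 to 594 falls and 23 to 197 rises over all genes, 3 to 14 falls and 0 to 1 rise in the receptor list, 0 to 4 falls in the NK list, 1 to 6 falls and 0 to 1 rise in the interleukin-2 list, and 3 to 7 falls and 0 to 1 rise in the homing list. No paired analysis was possible because each library number occurs in 1 group only. Counts near the floor of 3 limit Cd3d, Gzma and the NK receptor genes. They also limit the low end of Cd8a, Cd3e and Nkg7. The lowest counts in rapamycin and control hearts were 2 and 1 for Cd8a, 3 and 4 for Cd3e, and 4 and 4 for Nkg7.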

Other observations

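Rows for the T cell receptor loci, looked at after the results were known, did not pass. Tcrb had a log2 fold change of -0.67 ± 0.20, Tcra of -0.38 ± 0.13 and Tcrg of -0.53 ± 0.27 (SE; edgeR adjusted p = 0.0667, 0.108 and 0.254). Tcrb ranged from 8.97 over a median of 13.6 to 23.8 CPM in rapamycin hearts, highest in rapamycin 8, and from 15.7 over 18.3 to 41.0 CPM in control hearts, where control 19 and control 11 (40.8 CPM) lay above the other libraries.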
